A study of Saccharomyces cerevisiae with 12 samples.

Results

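The weak organic acid response genes of Saccharomyces cerevisiae are followed here over 4 carbon sources: PDR12 and its activator gene WAR1, and HAA1 with 5 genes linked to Haa1, TPO2, TPO3, YGP1, YRO2 and SPI1. These 8 genes of the 5656 that the array names were taken by the gene annotation of the platform, and each has 1 probe set of its own. One further probe set is shared by TPO2 and TPO3. The maltose, ethanol and acetate cultures were of the haploid wild-type strain CEN.PK113-7D (MATa). All cultures were grown aerobically in chemostats at a dilution rate of 0.1 per hour, pH 5 and 30 °C. The limiting carbon source was 1 of 4 (acetate, ethanol, maltose, glucose), and each had 3 numbered cultures with 1 Affymetrix yeast S98 array for each. The 3 glucose arrays come from older records with their own protocol text, which names no strain in the labels used here and gives dissolved oxygen above 80% of air saturation, against at least 60% for the other sources. Glucose and the age of the record therefore cannot be told apart. The labels name no deletion and no added agent in any group.

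Weak acids enter yeast in their undissociated form and release a proton and an anion in the cytosol. War1, a zinc cluster factor that sits on its targets and is activated by the anion, switches on PDR12, which encodes an ABC transporter of the plasma membrane that exports anions such as sorbate, benzoate and propionate and also the fusel acids made from amino acids. Haa1, a relative of the copper-responsive factor Cup2, answers mainly to the less lipophilic acetic and lactic acids and activates genes of transport and of the cell wall. The series design rests on a property of chemostats: the limiting nutrient stays at a low residual concentration. The acetate cultures at pH 5 were thus fed a weak acid that they also consumed, and the residual acetate is not among the values used here.

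Maltose array 2 was dim, with a median signal of 22.8 against 41.7 to 48.4 on the other 11 arrays. The signal of the 3' actin control probe set was 9.27 and 13.98 times the 5' one on ethanol arrays 2 and 3, and 10.2 and 13.1 times on acetate arrays 2 and 3, a sign of RNA quality. This ratio was 3.31 or less on the other 8 arrays. It moved with the carbon source. Calls of the weak acid response genes that were lost with it as a covariate are therefore given with the results. So are those lost with replicate 1 alone of ethanol and of acetate. For the other gene lists such losses are given as totals. The brightest signal was 3733 on glucose array 1 and 3765 on glucose array 3, against 7332 or more on the other 10 arrays. Differences were tested on log2 signals with limma, over the 7176 probe sets above a floor of 12 on at least 3 arrays. A probe set was called where its Benjamini-Hochberg adjusted p was under 0.05. Ethanol and acetate, which have the same number of carbon atoms, are named C2 compounds. Levels are deposited linear signals, which can be compared between arrays but not between probe sets. A level is an average over the culture, so fewer expressing cells and less RNA per cell cannot be told apart.

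PDR12, the exporter gene and War1 target, was high on sugars and low on both C2 compounds, acetate included. Its signals were 801.6, 620.3 and 491.8 on the glucose arrays and 314.1, 479.8 and 813.7 on the maltose arrays. They were 57.4, 41.8 and 37.2 on the ethanol arrays and 65.8, 29.9 and 33.3 on the acetate arrays. Every sugar array stood above every C2 array, while glucose overlapped maltose and ethanol overlapped acetate. The means were 638 ± 156 (SD, n = 3) for glucose, 536 ± 254 for maltose, 45.5 ± 10.6 for ethanol and 43.0 ± 19.8 for acetate. PDR12 fell 15.5-fold in acetate against glucose (log2 -3.96 ± 0.36, SE, limma adjusted p = 5.42e-06). It fell 12.3-fold in acetate against maltose (log2 -3.62 ± 0.36, limma adjusted p = 1.04e-05). Of the 7176 probe sets tested, its log2 change was the 3rd lowest in the first contrast and the 7th lowest in the second. The ethanol cultures gave falls of 14.0-fold against glucose and 11.1-fold against maltose (limma adjusted p = 1.05e-05 and 1.57e-05). Between acetate and ethanol the log2 difference was -0.15, with a 95% interval from -0.90 to 0.61. With the 3'/5' covariate PDR12 was called in both acetate contrasts, at log2 -3.20 against glucose and -3.04 against maltose. With replicate 1 alone of ethanol and of acetate the values were -3.25 and -2.92, and neither contrast passed (limma adjusted p = 0.0796 and 0.0937). The ethanol contrasts gave -3.45 against glucose and -3.11 against maltose with that setting and did not pass either (limma adjusted p = 0.0831 and 0.0878).

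WAR1, the gene of the factor itself, showed no such drop. Its signals were 63.5, 70.1 and 58.3 for glucose, 50.7, 25.3 and 70.2 for maltose, 89.1, 91.0 and 66.0 for ethanol and 66.0, 73.4 and 60.1 for acetate. All pairs of sources overlapped, and the lowest value belonged to the dim maltose array 2. WAR1 stood at log2 0.06 ± 0.35 in acetate against glucose (limma adjusted p = 0.959) and at 0.46 ± 0.25 on the C2 compounds against the sugars (limma adjusted p = 0.221). Without maltose array 3, WAR1 passed in ethanol against maltose (log2 1.18, limma adjusted p = 0.0371, against 0.148 with all arrays). With array weights, where arrays that vary more count less, WAR1 was called in that contrast (log2 0.75, limma adjusted p = 0.0272) and on the C2 compounds against the sugars (log2 0.47, limma adjusted p = 0.0177). That setting called 21.4% and 39.4% of all probe sets there.

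**Figure D1:**
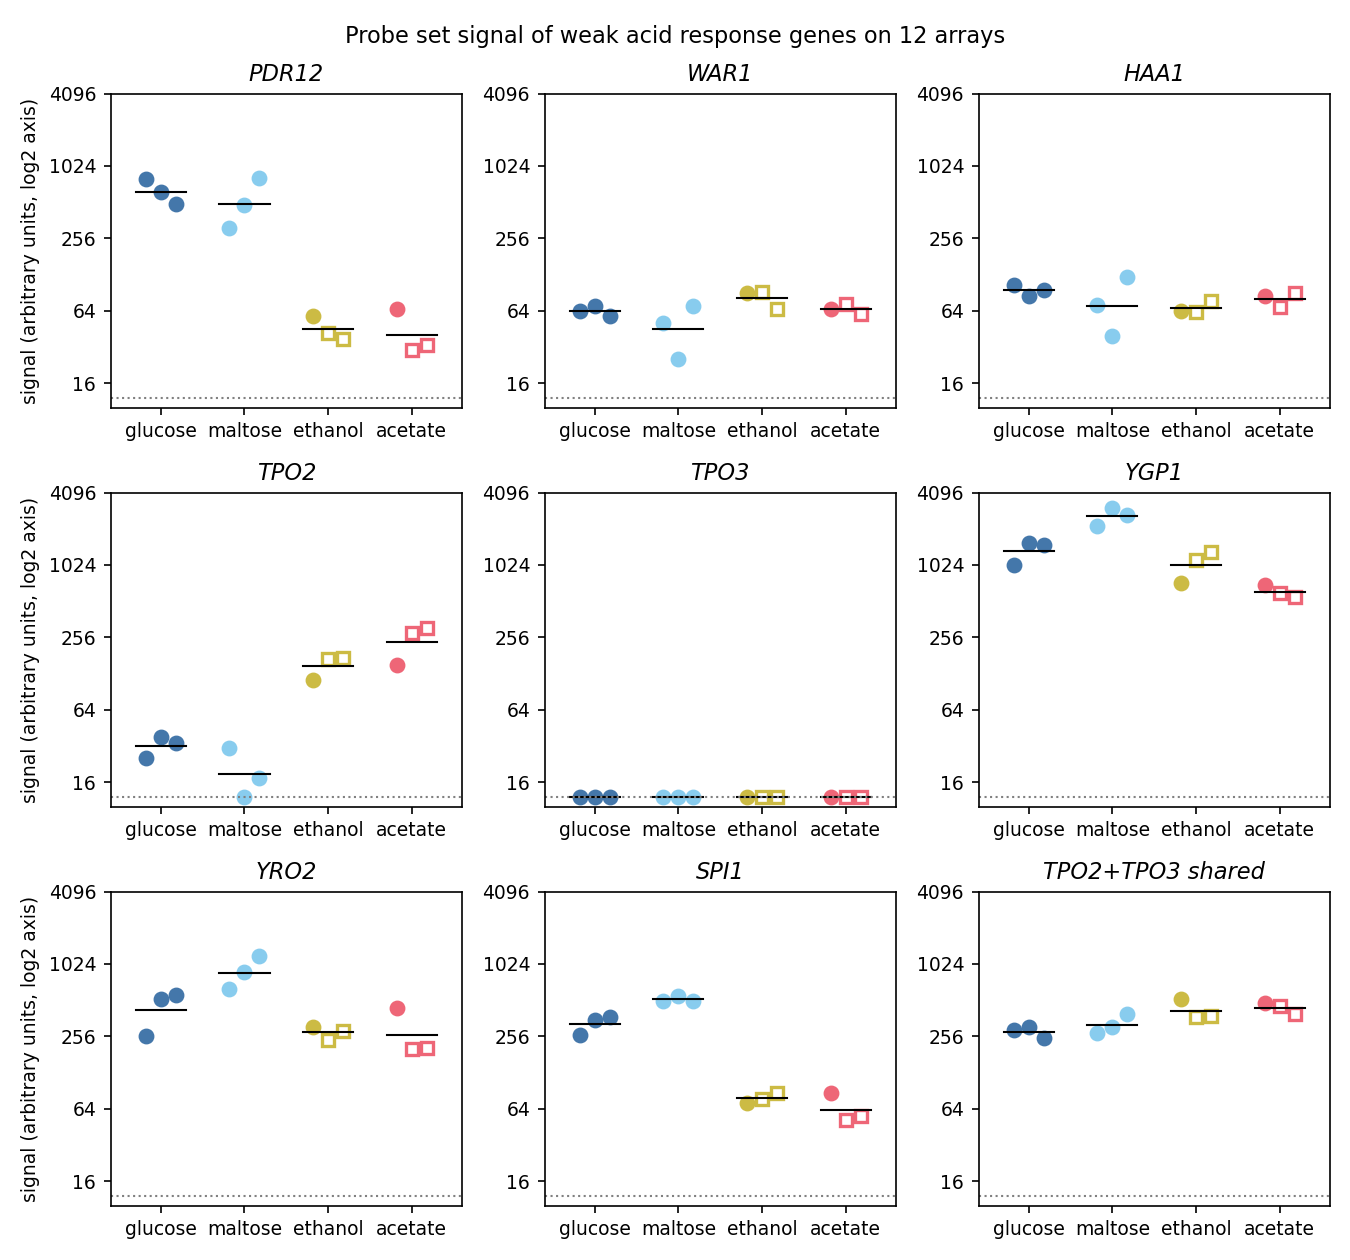
Deposited signal (linear intensity, log axis) of each of the 8 genes on each of the 12 arrays, by carbon source. A further panel shows the probe set shared by TPO2 and TPO3. Values under the floor of 12 are drawn at 12. Bars mark the geometric mean of the drawn values, hollow squares the 4 arrays with a high actin 3'/5' ratio, and the dotted line the floor. PDR12 and SPI1 separate the sugar arrays from the C2 arrays from above, and TPO2 from below. TPO3 is drawn at the floor on every array, as all its signals lie under it.

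HAA1, the regulator gene of the other branch, varied little among the means of the sources. It read 105.7, 84.5 and 94.9 on glucose, 70.9, 39.4 and 121.3 on maltose, 63.2, 62.9 and 76.5 on ethanol and 85.5, 68.6 and 89.5 on acetate. The maltose cultures spanned the range of all other cultures, with array 2 lowest and array 3 highest. The ethanol arrays lay below the glucose arrays without overlap, but the log2 difference of -0.49 did not pass (limma adjusted p = 0.535). In acetate HAA1 stood at log2 -0.23 ± 0.35 against glucose and 0.21 ± 0.35 against maltose (limma adjusted p = 0.773 and 0.721). Its difference between acetate and ethanol was log2 0.26 (95% interval -0.49 to 1.01).

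TPO2, encoding a proton-coupled exporter of polyamines at the plasma membrane, was the member of the Haa1 branch that was higher on acetate. It read 25.2, 37.9 and 33.7 on glucose and 30.9, 12 and 17.4 on maltose. On ethanol it read 112.7, 170.6 and 170.9, and on acetate 149.7, 278.4 and 304.8. All C2 arrays stood above all sugar arrays, and acetate and ethanol overlapped. The mean signals were 32.3 ± 6.47 (SD, n = 3) for glucose, 20.1 ± 9.73 for maltose, 151 ± 33.5 for ethanol and 244 ± 83.0 for acetate. TPO2 rose 7.33-fold in acetate against glucose (log2 2.87 ± 0.39, limma adjusted p = 0.000401) and 12.5-fold against maltose (log2 3.65 ± 0.39, limma adjusted p = 2.24e-05). One maltose array stood at the floor of 12, and the size of the change depends on the floor: with a floor of 50 both contrasts gave log2 2.22 (limma adjusted p = 0.000176 and 0.000105). In ethanol it rose 4.67-fold against glucose and 7.99-fold against maltose (limma adjusted p = 0.00432 and 0.000185). In acetate against ethanol TPO2 stood at log2 0.65, with a 95% interval from -0.17 to 1.47.

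Within each C2 source TPO2 was lowest on replicate 1, the array with the low 3'/5' ratio. With the covariate the change in acetate against glucose was log2 2.30 and did not pass (limma adjusted p = 0.0514), while that against maltose passed at 3.21 (limma adjusted p = 0.000937). With replicate 1 alone of ethanol and of acetate the values were 2.23 and 3.01, and neither passed (limma adjusted p = 0.318 and 0.114). In ethanol against maltose the value was 2.60 with that setting (limma adjusted p = 0.186). In ethanol against glucose TPO2 stood at log2 1.82 with it (limma adjusted p = 0.594), at 1.66 with the covariate (limma adjusted p = 0.324) and at 1.97 with glucose array 2 as the only glucose array (limma adjusted p = 0.211). The part of RNA quality in the size of this change was not tested further.

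TPO3, the close paralogue of TPO2, gave no usable signal on its own probe set. It read between 0.0 and 7.3 on the 12 arrays, below the floor of 12 on each of them, and was not tested. No fold can be given for it. The probe set that the platform assigns to both paralogues read 286.4, 303.3 and 246.7 on glucose, 273.2, 305.0 and 391.3 on maltose, 527.0, 369.0 and 375.3 on ethanol, and 480.1, 461.2 and 390.1 on acetate. Acetate lay above glucose without overlap, but the log2 difference of 0.67 ± 0.20 did not pass (limma adjusted p = 0.0643). It passed with quantile normalization (log2 0.74, limma adjusted p = 0.0291) and without maltose array 3 (log2 0.67, limma adjusted p = 0.0452). Array weights called it too (log2 0.74, limma adjusted p = 0.000952). They also called acetate against maltose (log2 0.66) and ethanol against glucose (log2 0.56). That setting called 36.2%, 36.2% and 15.5% of all probe sets in these contrasts. The same probe set was called on the C2 compounds against the sugars (log2 0.53 ± 0.14, limma adjusted p = 0.0194) with overlapping groups, and the call ended when glucose array 3 (log2 0.49) or acetate array 2 (log2 0.51) was left out, at an adjusted p of 0.0546 and 0.0545. It did not pass with the covariate (log2 0.83, limma adjusted p = 0.0581) or with replicate 1 alone of ethanol and of acetate (log2 0.76, limma adjusted p = 0.132). With the code letter as a block, or on the letter P arrays alone, it stood at log2 0.41. The letter P arrays hold maltose array 3 alone of the maltose arrays. With glucose array 2 as the only glucose array it stood at 0.47. It passed in none of these fits. Its change was smaller than that of the TPO2 probe set. Cross-hybridisation between the probe sets of these close paralogues is possible and was not tested, as no sequences were compared.

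SPI1, which encodes a GPI-anchored cell wall protein tied to tolerance of weak acids, was lower on both C2 compounds. It read 263.5, 349.3 and 367.8 on glucose, 502.0, 555.7 and 507.3 on maltose, 71.8, 77.0 and 86.5 on ethanol and 85.8, 51.8 and 55.3 on acetate. Every C2 array stood below every glucose array, and every glucose array below every maltose array. The means were 327 ± 55.7 (SD, n = 3) for glucose, 522 ± 29.6 for maltose, 78.4 ± 7.45 for ethanol and 64.3 ± 18.7 for acetate. SPI1 fell 5.17-fold in acetate against glucose (log2 -2.37 ± 0.23, limma adjusted p = 1.63e-05) and 8.32-fold against maltose (log2 -3.06 ± 0.23, limma adjusted p = 6.42e-07). It was also called with the covariate and with replicate 1 alone of ethanol and of acetate, where its log2 changes were -1.91 against glucose (limma adjusted p = 0.0253) and -2.60 against maltose (limma adjusted p = 0.00772). In acetate against ethanol SPI1 stood at log2 -0.32 (95% interval -0.81 to 0.17).

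YGP1, a gene for a secreted glycoprotein induced by stress and nutrient limitation, had its highest signals on maltose and its lowest on acetate. It read 1017.9, 1547.2 and 1488.2 on glucose, 2172.6, 3068.3 and 2676.0 on maltose, 719.5, 1119.5 and 1322.3 on ethanol and 696.2, 598.1 and 555.8 on acetate. The acetate arrays lay below all others and the maltose arrays above all others, while ethanol overlapped glucose. YGP1 fell 4.26-fold in acetate against maltose (log2 -2.09 ± 0.24, limma adjusted p = 4.03e-05). Against glucose it fell 2.16-fold (log2 -1.11 ± 0.24, limma adjusted p = 0.0120). This call ended when 1 of 4 arrays was left out, at log2 -1.00 and -1.03 without glucose array 2 or 3, and at -1.09 and -1.04 without acetate array 2 or 3 (limma adjusted p up to 0.0766). Acetate against ethanol gave log2 -0.73 ± 0.24, an unadjusted p of 0.00687 and a limma adjusted p of 0.912, and of the settings tried it passed only with array weights (limma adjusted p = 0.0202). Without the filter on dim probe sets, which tests more of them, the fall against glucose did not pass (limma adjusted p = 0.0633). It did not pass on the letter P arrays (limma adjusted p = 0.0652) or with glucose array 2 as the only glucose array (limma adjusted p = 0.0725). With replicate 1 alone of ethanol and of acetate YGP1 stood at log2 -0.93 against glucose and -1.91 against maltose, and neither passed (limma adjusted p = 0.547 and 0.0669).

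YRO2, which encodes a plasma membrane protein, read 256.9, 527.8 and 569.3 on glucose and 629.5, 879.2 and 1182.5 on maltose. On ethanol it read 308.7, 239.8 and 283.2, and on acetate 444.1, 202.4 and 205.4. The maltose arrays stood above all others. Acetate array 1 lay among the glucose values, at more than the signals of acetate arrays 2 and 3 together. YRO2 fell 3.28-fold in acetate against maltose (log2 -1.72 ± 0.33, limma adjusted p = 0.00429) and stood at log2 -0.69 ± 0.33 against glucose (limma adjusted p = 0.252). Without acetate array 1 the latter was -1.06 and passed (limma adjusted p = 0.0490). It was also called with array weights (log2 -0.96, limma adjusted p = 0.00998), which called 36.2% of all probe sets in that contrast. With the covariate the fall against maltose was log2 -1.35 and did not pass (limma adjusted p = 0.0831). On the letter P arrays, with maltose array 3 alone, it was -2.16 and did not pass. With replicate 1 alone of ethanol and of acetate the difference was log2 -0.97 against maltose (limma adjusted p = 0.676) and 0.061 against glucose.

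Set side by side, 4 of the 7 tested members were called in acetate against glucose (5.5% of all probe sets tested), TPO2 higher and PDR12, SPI1 and YGP1 lower. In acetate against maltose 5 of 7 were called (11.2% of all), the same 4 and YRO2, which was lower. Their groups did not overlap in 4 and in 5 of 7 cases, against 33.1% and 28.9% of all probe sets. In ethanol against glucose 3 members were called (2.55% of all), TPO2 higher and PDR12 and SPI1 lower. In ethanol against maltose 5 were called (6.19% of all), with the directions of acetate against maltose. The contrasts against glucose share the glucose arrays, and those against maltose the maltose arrays, so these counts are not independent. YGP1 fell 2.56-fold and YRO2 fell 3.15-fold in ethanol against maltose (limma adjusted p = 0.00292 and 0.00853). On the letter P arrays, with maltose array 3 alone, neither passed (log2 -1.39 and -2.10). Neither passed with replicate 1 alone of ethanol and of acetate (log2 -1.86 and -1.49). YRO2 also did not pass with the covariate (log2 -1.29, limma adjusted p = 0.110) or without the filter on dim probe sets (limma adjusted p = 0.0669).

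**Figure D2:**
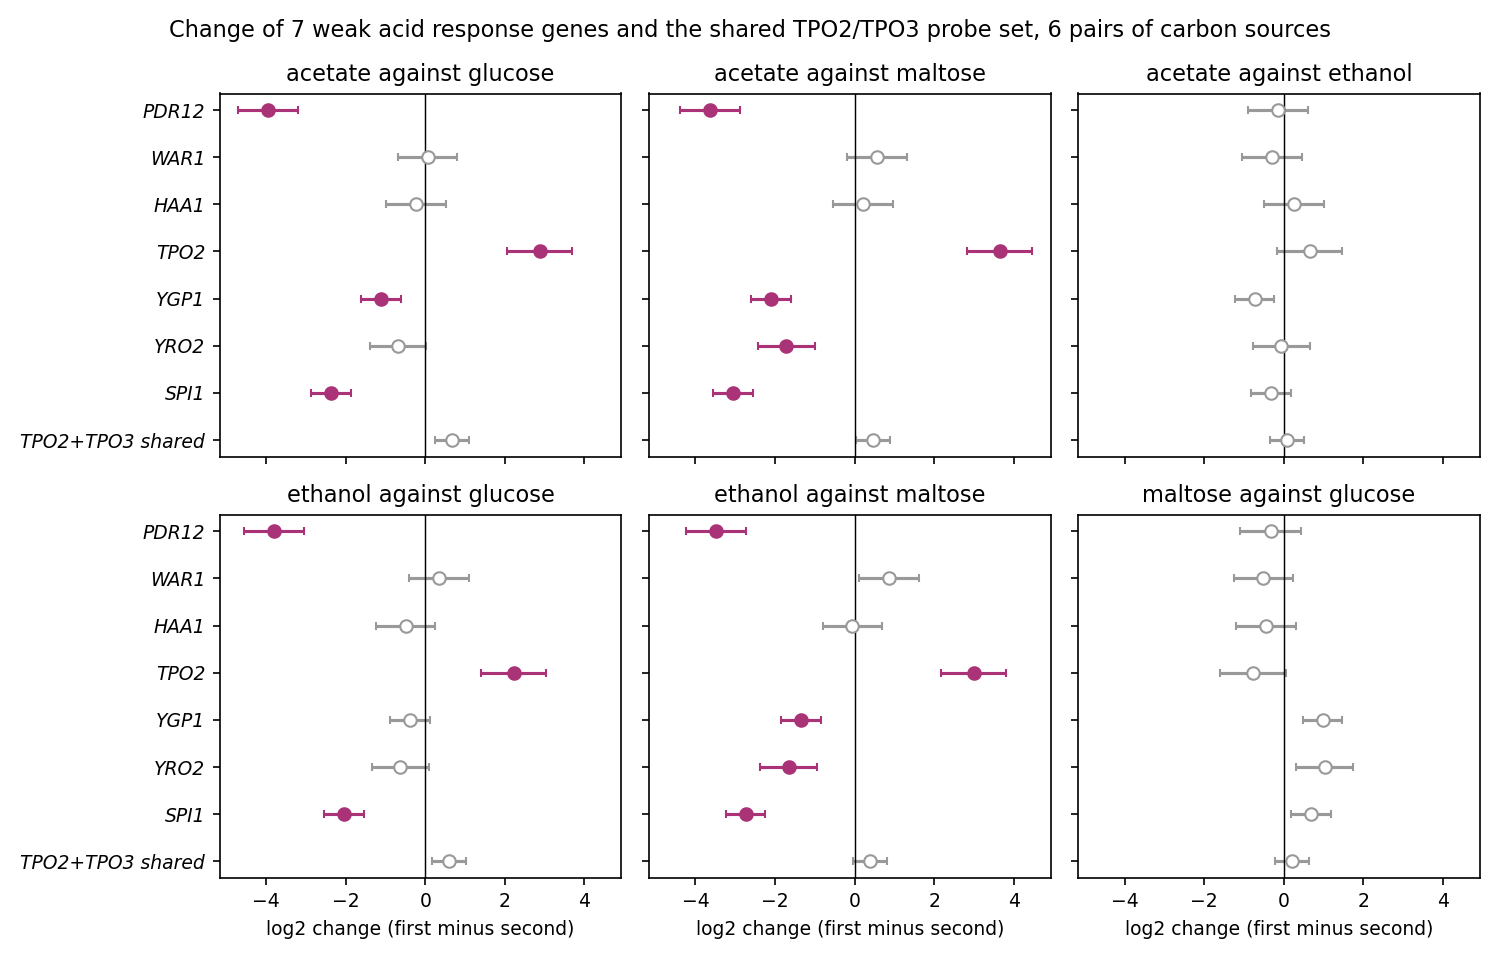
Log2 change of each tested gene and of the probe set shared by TPO2 and TPO3, with 95% intervals from limma, by contrast; values above 0 are higher in the first-named source. PDR12 and SPI1 lie far below 0 and TPO2 above 0 in the acetate contrasts with either sugar, and all intervals but that of YGP1 include 0 in acetate against ethanol.

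Acetate against ethanol, the contrast of the weak acid with the other C2 compound, separated no member after adjustment. Of the 7 tested members 0 passed with limma (0.0279% of all probe sets, 2 in number), 1 had an unadjusted p under 0.05 (4.29% of all), and 1 passed with array weights (6.68% of all), YGP1 in both cases. The groups did not overlap for YGP1 only, 1 of 7 members against 10.8% of all probe sets. A difference that misses the threshold does not show equal levels. The 95% intervals ran as low as log2 -1.24 for YGP1 and as high as log2 1.47 for TPO2.

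Maltose against glucose also gave 0 of 7 calls with limma (0.209% of all probe sets). At an unadjusted p under 0.05 there were 3 (11.6% of all), and with array weights 1 (6.22% of all). YGP1 stood at log2 0.98, YRO2 at 1.03 and SPI1 at 0.69 in maltose (limma adjusted p = 0.138, 0.282 and 0.297). These 3 genes were higher on every maltose array than on any glucose array, 3 of 7 members against 14.4% of all probe sets. Glucose array 1 had the lowest of the 3 glucose signals for each of them and the highest for PDR12.

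Over the C2 compounds against the sugars, 6 arrays against 6, 5 of 7 members were called (17.1% of all probe sets). TPO2 rose 7.65-fold, and YGP1 and YRO2 fell 2.35-fold and 2.25-fold with overlapping groups (limma adjusted p = 2.79e-06, 0.000142 and 0.00375). With the covariate YRO2 stood at log2 -0.75 in this contrast (limma adjusted p = 0.352), and TPO2 at log2 2.43 (limma adjusted p = 0.00481). With replicate 1 alone of ethanol and of acetate, TPO2 stood at log2 2.42 and YRO2 at -0.72 (limma adjusted p = 0.0558 and 0.598), while PDR12, SPI1 and YGP1 were called at log2 -3.18, -2.39 and -1.40. In the moderated F test over the 4 sources the same 5 members passed (8.19% of all), with a limma adjusted p from 4.04e-07 for SPI1 to 0.0107 for YRO2.

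**Figure D3:**
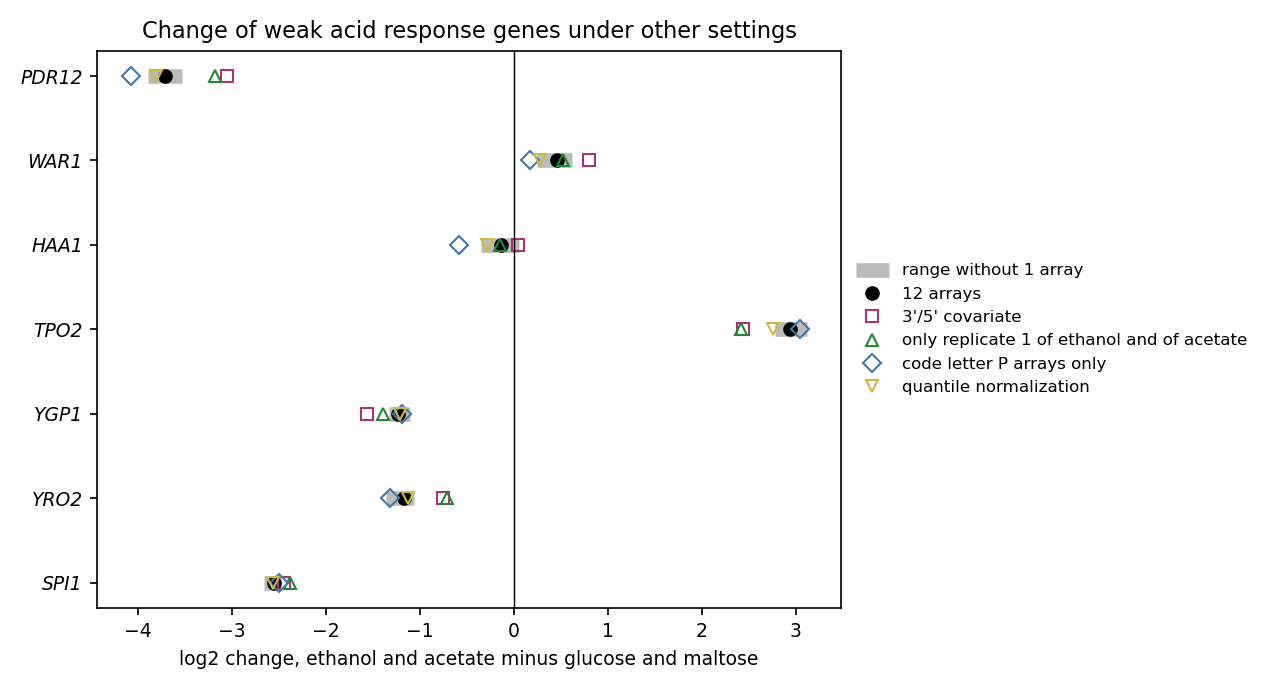
Log2 change of the tested genes on ethanol and acetate against glucose and maltose, from all 12 arrays (black), with the 3'/5' covariate, with replicate 1 alone of ethanol and of acetate, on the code letter P arrays only, after quantile normalization, and as the range over fits that each leave out 1 array (grey). PDR12 runs from -3.89 to -3.54 over the fits that leave out 1 array and stands at -3.05 with the covariate. The letter P arrays hold maltose array 3 alone of the maltose arrays.

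The War1 target and the Haa1-linked genes did not form opposite blocks on the C2 compounds against the sugars. SPI1, YGP1 and YRO2 fell, while TPO2 and the probe set it shares with TPO3 rose. The falls of YGP1 and YRO2 (log2 -1.23 and -1.17, overlapping groups) were smaller than that of PDR12 (log2 -3.72). Against glucose YRO2 was not called in acetate or in ethanol, and YGP1 was not called in ethanol (limma adjusted p = 0.252, 0.381 and 0.466). The change of each Haa1-linked gene was set against that of PDR12 on the same arrays, with the spread taken per gene. In acetate against glucose the change of TPO2 exceeded that of PDR12 by log2 6.83 (95% interval 5.03 to 8.63), and that of SPI1 by 1.59 (0.60 to 2.57). In acetate against maltose the excess was log2 7.27 for TPO2 (5.48 to 9.07), 1.91 for YRO2 (0.93 to 2.88) and 1.53 for YGP1 (0.34 to 2.73). SPI1 differed from PDR12 there by log2 0.57, with an interval from -0.42 to 1.55 that includes 0. HAA1 exceeded PDR12 by log2 3.83 in that contrast and WAR1 by 4.19. PDR12 has one of the lowest changes of all, so nearly every probe set exceeds it: such an interval lay above 0 for 99.7% of all probe sets against glucose, 99.4% against maltose and 99.8% over the C2 compounds against the sugars. The moderated fit called 99.9%, 99.7% and 100%. These values therefore give sizes, and a difference from PDR12 says nothing particular about the Haa1-linked genes.

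Across the 12 arrays the log2 signals of PDR12 and SPI1 had a Pearson's r of 0.94, PDR12 and TPO2 one of -0.95, and TPO2 and SPI1 one of -0.96. These values mostly follow the split between sugars and C2 compounds that all these genes share, and are given as a description. After the mean of each source was taken off, r was 0.23 for PDR12 with SPI1, -0.75 for PDR12 with TPO2 and -0.31 for TPO2 with SPI1. The highest such value between members was 0.81, for YRO2 with SPI1. Within ethanol and within acetate, replicate 1, the array with the low 3'/5' ratio, was highest for PDR12 and lowest for TPO2. The part of RNA quality in these values was not tested. Against the regulator genes, PDR12 had an r of -0.41 with WAR1, and TPO2 one of -0.01 with HAA1.

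The genes whose log2 signals over the 12 arrays were most like PDR12 were YEF1, an NAD kinase gene (r = 0.982), FDH1, for formate dehydrogenase (0.975), BAP2, for a permease of branched-chain amino acids (0.974), SOL3, of the pentose phosphate pathway (0.969), and YGR161W-C (0.968). FDH1 read 1042 ± 307 on glucose, 537 ± 122 on maltose, 23.0 ± 6.78 on ethanol and 40.9 ± 49.9 on acetate (SD, n = 3). Most like TPO2 were NUM1, for a protein of the cell cortex (0.964), YGR109W-B (0.962), PCK1 and FBP1, of gluconeogenesis (0.959 and 0.948), and ADY2, for an acetate transporter (0.953). Most like SPI1 were SIP18, for a phospholipid-binding protein (0.987), TDH1, of glycolysis (0.973), ROQ1 (0.971), PIR3, for a cell wall protein (0.970), and HSP78, for a mitochondrial chaperone (0.965). SIP18 read 955 ± 211 on glucose, 1476 ± 159 on maltose, 232 ± 66.7 on ethanol and 242 ± 81.9 on acetate. These genes too separate sugars from C2 compounds, which the arrays of this design share.

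Of 7 further Haa1-dependent genes, 0 rose and 2 fell on the C2 compounds against the sugars, where 11.4% of all probe sets were called higher and 5.69% lower. GRE1, for a hydrophilin, read 1360 ± 919 (SD, n = 3) on glucose, 2700 ± 663 on maltose, 299 ± 87.8 on ethanol and 280 ± 179 on acetate, and fell 6.19-fold (log2 -2.63 ± 0.39, limma adjusted p = 0.000380). Its glucose values ran from 307.1 on array 1 to 1995.3 on array 3. PHM8, for a phosphatase, fell 2.06-fold from signals near the floor (limma adjusted p = 0.00399), from 32.9 ± 6.26 on glucose and 29.8 ± 11.1 on maltose to 16.6 ± 2.66 on ethanol and 12.9 ± 1.51 on acetate. The median log2 change of these 7 genes was -0.02, against 0.12 over all probe sets tested. GRE1 and PHM8 also fell in acetate against glucose and against maltose, and 0 of the 7 were called in acetate against ethanol with limma. TDA6, one of the 7, is the neighbour of TPO3 in the reference annotation and stood at log2 -0.023 (limma adjusted p = 0.940). Its signals lay around the floor of 12, from 3.1 to 19.8, so this value cannot show a lack of change.

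Of the 4 paralogues of members, SPS100, a spore wall gene and paralogue of YGP1, fell 4.69-fold on the C2 compounds against the sugars (log2 -2.23 ± 0.43, limma adjusted p = 0.00285). It read 44.1 on glucose array 1, against 422.2 and 466.1 on arrays 2 and 3, and its groups overlapped. CUP2, MRH1 and SED1, the paralogues of HAA1, YRO2 and SPI1, stood at log2 -0.05, 0.30 and -0.20 and were not called; they are named here after their values were seen. SED1 read 1846 ± 406 on glucose and 1879 ± 265 on acetate (SD, n = 3), where SPI1 fell 5.17-fold.

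Of 9 other transporter and regulator genes of pleiotropic drug resistance, 4 rose and 0 fell on the C2 compounds against the sugars (median log2 0.35), where 11.4% of all probe sets were called higher. The 4 were the transporter genes AUS1, PDR11 and PDR10 and the regulator gene PDR1 (PDR10 and PDR1 are named after their values were seen), and the 5 others lay between log2 -0.23 and 0.35. AUS1, for a sterol importer, rose 2.26-fold (log2 1.18 ± 0.27, limma adjusted p = 0.00779), from 35.0 ± 10.5 on glucose and 29.2 ± 13.0 on maltose to 72.8 ± 3.64 on ethanol and 64.4 ± 9.05 on acetate. AUS1 has 6 probe sets of its own, and PDR5 and YOR1 have 7 each. Only the brightest on average was read for each of these genes, and the values of the others are not given here. PDR11, another sterol importer gene, stood at log2 0.80 (limma adjusted p = 0.0316). In acetate against glucose 0 of the 9 were called with limma (5.5% of all probe sets). In acetate against maltose 3 rose (7.82% of all), AUS1 and PDR11 by log2 1.26 and 1.14 the most.

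**Figure D4:**
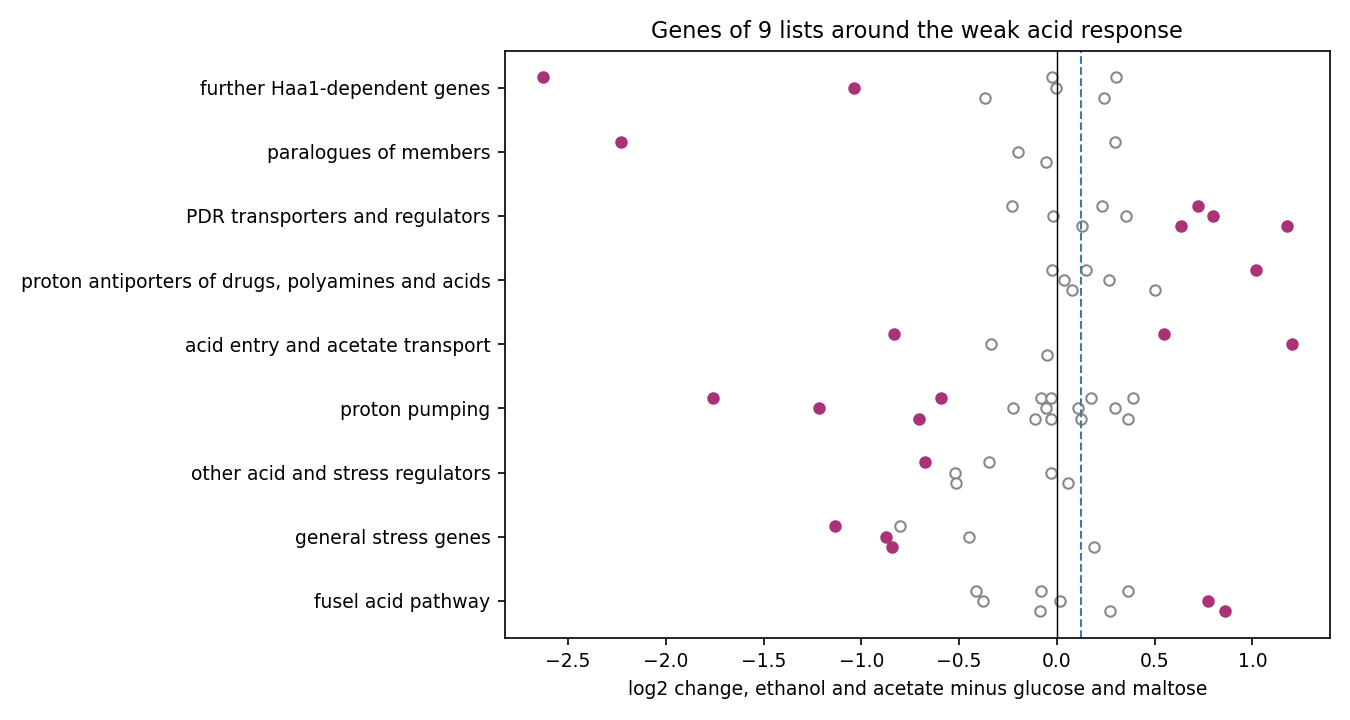
Log2 change of each tested gene of the other lists on ethanol and acetate against glucose and maltose, 1 row per list; filled points passed at an adjusted p under 0.05 and the dashed line marks the median of all probe sets, 0.12. The called genes with the lowest values are GRE1, SPS100 and HSP30.

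Of 9 proton antiporter genes for drugs, polyamines and acids, 7 could be tested, 1 rose and 0 fell in the same contrast (median log2 0.15). Over all probe sets 11.4% were called higher in it and 5.69% lower. QDR2, for a multidrug exporter, rose 2.02-fold (log2 1.02 ± 0.23, limma adjusted p = 0.00727), from 22.6 ± 2.67 on glucose to 41.6 ± 10.1 on acetate. TPO1 and TPO4, the other polyamine exporter genes of that list, stood at log2 -0.023 and 0.038 and were not called. Among 5 genes of acid entry and acetate transport 2 rose and 1 fell (median log2 -0.05), against the same shares of all probe sets. ADY2, for an acetate and ammonium transporter, rose 2.30-fold (log2 1.20 ± 0.13, limma adjusted p = 1.20e-05). It read 1032 ± 149 on glucose, 834 ± 34.5 on maltose, 2197 ± 310 on ethanol and 2089 ± 274 on acetate. JEN1, for a monocarboxylate and proton symporter, fell 1.78-fold (log2 -0.83 ± 0.13, limma adjusted p = 0.000396), to 1381 ± 169 on ethanol and 1012 ± 105 on acetate from 1943 ± 143 on glucose and 2283 ± 311 on maltose. ATO3, an ammonium transporter gene, stood at log2 0.55 (limma adjusted p = 0.0297). Of these 5 genes ADY2 rose and JEN1 fell also in acetate against either sugar.

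Of 16 genes of proton pumping, 0 rose and 4 fell on the C2 compounds against the sugars (median log2 -0.04). Over all probe sets 11.4% were called higher there and 5.69% lower. HSP30, for an inhibitor of the plasma membrane proton pump, fell 3.39-fold (log2 -1.76 ± 0.38, limma adjusted p = 0.00520), with overlapping groups and with glucose arrays from 122.1 to 760.5. It read 500 ± 335 (SD, n = 3) on glucose, 1253 ± 230 on maltose, 139 ± 68.3 on ethanol and 348 ± 160 on acetate. In acetate HSP30 stood at log2 -0.25 ± 0.53 against glucose (limma adjusted p = 0.853) and at -1.93 ± 0.53 against maltose (limma adjusted p = 0.0318). PMA2, the minor form of the plasma membrane proton pump, stood at log2 -1.22 (limma adjusted p = 0.0355), and its probe set is open to cross-hybridisation with PMA1. The other 2 were subunit genes of the vacuolar pump. In acetate against glucose 0 of the 16 were called with limma (5.5% of all probe sets). Of 6 general stress genes 0 rose and 3 fell on the C2 compounds against the sugars (median log2 -0.82), where 5.69% of all probe sets were called lower. SSA4, for an Hsp70 chaperone, fell 2.20-fold (limma adjusted p = 0.000448) and HSP26, for a small heat shock protein, fell 1.83-fold (limma adjusted p = 0.00314). SSA4 read 406 ± 55.8 on glucose, 545 ± 118 on maltose, 239 ± 66.6 on ethanol and 196 ± 42.5 on acetate. MSN2, for the general stress factor, was the only 1 of 6 other acid and stress regulators called, at log2 -0.68 (limma adjusted p = 0.0262), and the median of these 6 was -0.43.

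Of 9 genes of the pathway that turns amino acids into fusel acids, substrates of Pdr12, 2 rose and 0 fell in this contrast (median log2 0.02), a share near the 17.1% of all probe sets called. BAT2, for the cytosolic branched-chain aminotransferase, rose 1.82-fold (log2 0.86 ± 0.16, limma adjusted p = 0.00258), from 367 ± 45.5 on glucose to 576 ± 52.5 on acetate. ARO10, for a decarboxylase of the pathway, stood at log2 0.77 (limma adjusted p = 0.0327). The calls of PDR11, ATO3, PMA2, MSN2 and ARO10 each ended when any 1 of 6 to 9 arrays was left out, at a limma adjusted p up to 0.111. Over the 69 tested genes of the other lists 21 were called, against 17.1% of all probe sets. Of the 21, 3 were called with the 3'/5' covariate, which called 2.05% of all, and 2 with replicate 1 alone of ethanol and of acetate, which called 2.4%. The 3 called with the covariate were ADY2, SSA4 and QDR2, and every other call of these lists in this contrast was lost with it. In acetate against ethanol 0 genes of these lists were called with limma.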

How the data were processed

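The deposited values are linear probe set signals, an intensity scaled by the authors. Per the submitters' processing notes MAS5 made those of the 9 arrays other than glucose; the version of MAS5, and the software of the glucose arrays, are not given in the sources used here. Of 9335 probe sets 60 controls were left out. Of the other 9275, the platform annotation gave 1 gene for 6504, several for 328 and none for 2443. No genome build or sequence was used. Each array was rescaled to the same mean after trimming 2% at each end, values under 12 were set to 12, and log2 was taken; the 7176 probe sets above 12 on at least 3 of 12 arrays were tested, 7 members among them. Folds of signals near the floor are understated.

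One mean per carbon source was fitted to all tested probe sets with limma 3.58.1 in R 4.3.3 (lmFit, eBayes with an intensity trend), with Benjamini-Hochberg adjustment within each contrast and calls at an adjusted p under 0.05. The labels do not say that the numbered cultures were started independently, so p-values measure only the spread between these cultures. Precision is limited by the number of arrays and by how far a signal lies over background. The 3'/5' covariate was the mean log2 ratio of the actin and YER148W control probe sets. The comparison with PDR12 was planned as a moderated fit, which called nearly every probe set; ordinary intervals with 8 residual degrees of freedom per gene were added after seeing the data, as was a fit with glucose array 2 as the only glucose array. The pipeline was tested on simulated data.

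The members and the other lists were chosen with earlier results of these data known, so that their counts are no independent evidence. All members are named. Of each other list the rule took up to 2 called genes per direction with the largest log2 change, in the C2 contrast and in the 3 acetate contrasts, read from its brightest probe set on average, and for PDR12, TPO2 and SPI1 the 5 genes with the highest Pearson's r. Some genes that the rule took in a single contrast are counted only. Alternatives covered the floor, the filter, normalization, code letters of the array descriptions, RNA quality, array weights, the replicate block and each array left out.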

Additional observations from a re-analysis of the deposited data

How the results depend on the processing

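Over 22 alternative settings 1148 of 1232 member values kept their direction and their side of the threshold, 39 lost a call, 12 gained one and 33 turned sign. Replicate 1 alone of ethanol and of acetate leaves 1 array for each of them, so the members called with that setting are not counted here. YRO2 then stood at log2 0.061 in acetate against glucose, and in acetate against ethanol PDR12 stood at 0.20, YRO2 at 0.52, SPI1 at 0.26 and the shared TPO2 and TPO3 probe set at -0.13. The 9 code letter P arrays hold maltose array 3 alone of the maltose arrays. Contrasts with maltose on them, and with the letter as a block, therefore rest on that array. On these arrays, and with the letter as a block, maltose against glucose gave 0.37 for PDR12, 0.21 for WAR1 and 0.28 for HAA1, and acetate against maltose -0.083 for WAR1 and -0.59 for HAA1. Array weights, whose iteration stopped before its tolerance, called 1 member each in acetate against ethanol and in maltose against glucose, and gave HAA1 -0.018 in acetate against maltose (-0.11 with quantile normalization). With the 3'/5' covariate HAA1 stood at 0.11 in ethanol against maltose and at 0.041 over C2 compounds against sugars. A floor of 50 gave PDR12 0.066 in acetate against ethanol and TPO2 0.00 in maltose against glucose. With glucose array 2 as the only glucose array WAR1 stood at -0.081 in acetate against glucose. The cause was not tested in any of these cases.

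Leaving out 1 array at a time gave 3 to 5 calls in acetate against glucose, 5 in acetate against maltose, 3 in ethanol against glucose, 5 to 6 in ethanol against maltose, 5 over C2 compounds against sugars, 4 to 5 in the F test and 0 in the 2 other contrasts. Over all probe sets these fits called 1.7% to 9.39%, 3.48% to 18.7%, 1.05% to 3.39%, 2.23% to 13.8% and 9.82% to 21.2% in the first 5 contrasts named. Signs turned within these ranges: in acetate against ethanol PDR12 -0.50 to 0.067, YRO2 -0.44 to 0.13 and the shared probe set -0.0088 to 0.25; in acetate against glucose WAR1 -0.0185 to 0.13; and for HAA1 -0.20 to 0.61 in acetate against maltose, -0.46 to 0.35 in ethanol against maltose and -0.35 to 0.059 over C2 compounds against sugars.

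Over all sources together the replicate numbers did not pair the arrays. The correlation of deviations ran from -0.21 to 0.53 over 18 same-numbered pairs (6 over 0.1), and over 36 other pairs 9 were over 0.1. Ethanol and acetate departed from this. Their arrays 1 correlated at 0.53 and their arrays 3 at 0.43, but their arrays 2 at -0.08. Ethanol 1 with acetate 3 stood at -0.48, and ethanol 3 with acetate 1 at -0.52. A fit paired within these sources alone was not run. The replicate block called 4 members in acetate against glucose, 5 in acetate against maltose, 3 in ethanol against glucose and 5 in ethanol against maltose, over C2 compounds against sugars and in the F test, and changed no member's call. Over all probe sets it called 6.91%, 12.2%, 2.83%, 6.73% and 18.1% in these contrasts, the F test aside. Counts over all probe sets depend more on the setting: over C2 compounds against sugars 1225 were called, from 147 with the covariate to 2826 with array weights. In acetate against glucose it was 395 (62 to 2598), against maltose 801 (94 to 2597), against ethanol 2 (1 to 479), in ethanol against glucose 183 (40 to 1111), against maltose 444 (73 to 1538) and in maltose against glucose 15 (2 to 446). Quantile normalization moved the median of all probe sets from log2 0.12 to 0.01 over C2 compounds against sugars, and the calls from 817 higher and 408 lower to 767 and 645; in acetate against maltose it moved them from 561 and 240 to 411 and 362.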
